A study of Mus musculus with 24 samples.

Results

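MiR-210, miR-103, and miR-107 are microRNAs (miRNAs) with a known link to oxygen supply, and 4 of their mature forms were followed here: miR-210-3p, miR-210-5p, miR-103-3p, and miR-107-3p. They were chosen by name, as the entries mmu-miR-210-3p, mmu-miR-210-5p, mmu-miR-103-3p, and mmu-miR-107-3p, out of 1531 mouse entries in the count table of each brain region. All 4 entries were present in all 3 tables.

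Mature miRNAs guide a silencing complex to messenger RNAs that pair with their seed, the stretch near the 5′ end. Transcription of miR-210 is driven by the hypoxia-inducible factors (HIF), and it is known for lowering mitochondrial respiration when oxygen is short, so that it is often used as a marker of hypoxia. MiR-103 and miR-107 lie inside genes of pantothenate kinases, the enzymes that begin coenzyme A synthesis. They have been described as lowering Dicer, as acting on insulin signalling, and, for miR-107, as lowering the HIF-1 beta subunit.

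The 24 libraries came from 8 CD1 mouse pups at postnatal day 9 (both sexes were used), each of which gave the right cortex, the right striatum/thalamus, and the cerebellum. In the 4 pups with hypoxic-ischemic brain injury (HIBI; pups 1, 4, 5, and 7) the right common carotid artery was cauterized, and after 2 h of recovery the pups breathed 8% oxygen for 30 min. The 4 sham pups (pups 2, 3, 6, and 8) had the same surgery without ligation and spent the 30 min in warm room air, also apart from the dam. Tissue was collected 30 min after the injury. In this model the cerebellum is exposed to the hypoxia but is supplied by other arteries than the ligated one. No group had hypoxia alone, so that within HIBI pups ischemia and region cannot be told apart.

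The sequences are shown because a single base decides which of 2 rows a read of miR-103 or miR-107 belongs to, while miR-210 resembles neither. The mature forms below are from RefSeq (GRCm38.p6), 5′ to 3′, with the seed at bases 2 to 8 in capitals.
miR-210-3p: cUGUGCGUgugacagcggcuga
miR-210-5p: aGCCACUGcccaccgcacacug
miR-103-3p: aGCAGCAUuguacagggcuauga
miR-107-3p: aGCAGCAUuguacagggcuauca

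MiR-103-3p and miR-107-3p have the same seed, shared with no other mature mouse miRNA in RefSeq, and are identical over their first 21 bases. They differ by 1 substitution, G22C, counted from the 5′ end of the 23 bases with the miR-103-3p base first. The seeds of miR-210-3p and of miR-210-5p were each found in 1 mature mouse miRNA only, the member itself. Shifted by 1 base, the letters AGCAGC that open miR-103-3p and miR-107-3p lie in the seed AGCAGCA of 10 other mature mouse miRNAs, among them miR-15a-5p, miR-16-5p, and miR-195a-5p.

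The hairpin of miR-210 lies on the minus strand at chr7:141221384-141221493, and no other annotated gene overlaps it. MiR-103-3p is cut from both of its hairpins with the same sequence, so its reads cannot be assigned to one locus. Mir103-1 lies at chr11:35782396-35782481 in an intron of Pank3, and Mir103-2 at chr2:131288052-131288137 in an intron of Pank2, both on the plus strand of their host gene. Mir107 lies on the minus strand at chr19:34820687-34820773, in an intron of Pank1. All 4 hairpins were found at these positions in both RefSeq and GENCODE M21.

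The depth was 1254185 to 3406624 counts on mouse miRNAs per library, with a regional median between 1958215 (striatum/thalamus) and 2645478 (cortex). A count of 0 at these depths allows a level of up to 0.881 to 2.39 CPM, taking 3 counts as the limit, where CPM stands for counts rescaled so that libraries have equal totals. Intervals on counts cover counting error only, since reads without molecular identifiers are not independent molecules. The 3 brain miRNAs used as tissue markers, miR-124-3p, miR-9-5p, and miR-128-3p, were present in every group, with a summed level of 78926 to 223731 CPM. The HIBI cerebellum library of pup 1 stood apart, with the fewest counts of all (1254185) and yet the most miRNAs detected (912, against 794 to 872 in the other cerebellum libraries), and the HIBI and share results of the cerebellum that it moves are given with and without it.

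The members covered a wide range of abundance. MiR-103-3p was the most abundant, with 878331 reads over the 24 libraries, between 16028 and 62162 in each, and took 1.15% to 2.14% of a library. It ranked between 11 and 20 among all mouse miRNAs. MiR-107-3p, its near twin, had 37001 reads, between 831 and 2466 per library, and ranked between 86 and 122. For each read of miR-107-3p there were 23.7 of miR-103-3p.

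MiR-210 was rare. MiR-210-3p, the arm usually taken as the active strand, had 252 reads over the 24 libraries, between 1 and 34 in each (median 10.5), a mean of 4.60 CPM and a median rank of 510. MiR-210-5p had 80 reads, between 0 and 12 per library (median 2.5), and was at 0 in 6 libraries. There were 3485 reads of miR-103-3p for each read of miR-210-3p, with mature lengths of 23 and 22 bases, and how readily each sequence enters a library was not measured. Neither arm of miR-210 reached the minimum of 10 CPM set for the other miRNAs in any region. Both were kept in the fits as named members, at a depth where a few reads decide a value.

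The 3p arm held 75.9% of the miR-210 reads (95% Wilson interval, 71.0 to 80.2, from 252 and 80 reads). Its share was 81.8% in the cerebellum (74.4 to 87.3), 77.5% in the cortex (69.6 to 83.9), and 60.6% in the striatum/thalamus (48.5 to 71.5). The interval of the striatum/thalamus lay below that of the cerebellum and overlapped that of the cortex, and it was drawn from 40 and 26 reads. These intervals pool 8 libraries and hold no spread between pups, and no test of the difference was made.

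The first question was whether HIBI changed the level of miR-210 at 30 min. It was not shown to in any region, for either arm. In the cerebellum, miR-210-3p had 12, 1, 30, and 12 reads in sham pups 2, 3, 6, and 8, and 13, 16, 12, and 16 reads in HIBI pups 1, 4, 5, and 7. The HIBI libraries were close together, while the sham libraries held both the lowest and the highest of the 8. After trimmed mean of M-values (TMM) scaling the mean was 6.10 ± 5.85 CPM in sham (SD, n = 4) and 7.05 ± 1.74 CPM in HIBI.

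In the striatum/thalamus, miR-210-3p had 6, 4, 2, and 1 reads in the sham pups and 2, 2, 7, and 16 in the HIBI pups, in the same order. HIBI pup 7 alone held 16 of the 27 HIBI reads, and HIBI pups 1 and 4 lay within the sham range. After scaling for depth HIBI pup 5 did too, at 3.41 CPM against 3.65 CPM in sham pup 2, the highest sham library. The mean was 1.72 ± 1.38 CPM in sham (SD, n = 4) and 3.19 ± 2.53 CPM in HIBI.

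In the cortex, there were 11, 34, 12, and 6 reads of miR-210-3p in the sham pups and 7, 8, 10, and 12 in the HIBI pups. Sham pup 3 was far above the other 7 libraries, which lay between 6 and 12 reads. Its means were 5.31 ± 3.43 CPM in sham (SD, n = 4) and 3.85 ± 0.471 CPM in HIBI. Pup 3 thus gave the fewest miR-210-3p reads of all cerebellum libraries and the most of all cortex libraries.

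**Figure D1:**
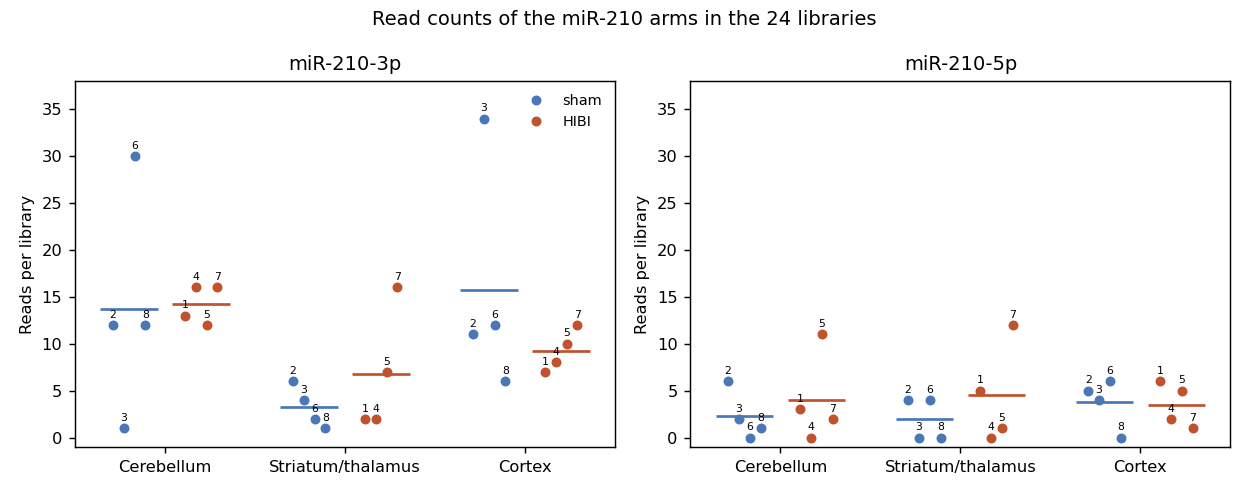
Reads of miR-210-3p (left) and miR-210-5p (right) in each of the 24 libraries, not scaled for depth, by region on the x axis, with 4 sham pups (blue) and 4 HIBI pups (red) labelled by pup number and a line at the group mean. No library holds more than 34 reads of miR-210-3p or 12 of miR-210-5p, and sham and HIBI overlap in every region.

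MiR-210-5p, the other strand of the same hairpin, had still fewer reads. In the cerebellum it had 6, 2, 0, and 1 reads in the sham pups and 3, 0, 11, and 2 in the HIBI pups. In the striatum/thalamus the reads were 4, 0, 4, and 0 in sham and 5, 0, 1, and 12 in HIBI, and in the cortex 5, 4, 6, and 0 in sham and 6, 2, 5, and 1 in HIBI. Each region had at least 1 sham library at 0, and the higher HIBI values came from pup 5 in the cerebellum and pup 7 in the striatum/thalamus.

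The comparison of HIBI with sham used edgeR's quasi-likelihood test on the counts of the 8 libraries of a region. The study's criteria for fold and p were applied, a change of more than 1.5-fold with p under 0.05 before adjustment. The study also required an average above 10 CPM. That minimum was not applied here to the 4 members, and neither arm of miR-210 reached it. The p-values measure the spread between pups, which are separate animals. None of the 4 members met the criteria in any region. Of all miRNAs fitted, 8.03% met them in the cerebellum, 2.74% in striatum/thalamus, and 3.64% in cortex, and a count of 0 among 4 lies near that background. Nor did any member have a p under 0.05 before adjustment (10.3%, 3.20%, and 4.85% of all miRNAs fitted, in the same order) or after it (0.00%, 0.00%, and 0.243%). The HIBI and sham libraries overlapped for all 4 members in all 3 regions, and the share of all miRNAs that did not overlap was 3.44%, 2.28%, and 3.88%. In bulk tissue, a lower level per cell and fewer cells that hold a miRNA cannot be told apart.

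For miR-210-3p, the log2 fold change of HIBI against sham was 0.18 in the cerebellum (95% confidence interval -1.23 to 1.59; edgeR, adjusted p = 0.905). It was 0.97 in the striatum/thalamus (-0.89 to 2.84; edgeR, adjusted p = 0.977) and -0.49 in the cortex (-1.53 to 0.56; edgeR, adjusted p = 0.960). In folds, these intervals ran from 0.428 to 3.00, from 0.539 to 7.16, and from 0.346 to 1.47. Those of the cerebellum and striatum/thalamus held a 1.5-fold change in both directions, and that of the cortex held a 1.5-fold decrease only. Changes of that size were not excluded in these directions. The width of the intervals holds both counting error and the spread between pups. The exact permutation tests of 4 against 4 pups, which cannot go below p = 0.0286, gave p = 0.600, 0.371, and 0.686.

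Leaving out a single sham pup turned the sign of 2 of these values. Without sham pup 3, the log2 fold change of miR-210-3p was -0.20 in the cerebellum and 0.07 in the cortex. No direction is therefore given for miR-210-3p in either region. For the striatum/thalamus, where HIBI pup 7 had the most reads, the log2 fold change was 0.32 without that pup and between 0.78 and 1.55 without any other.

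For miR-210-5p the intervals were wider still. The cerebellum had a log2 fold change of 0.85 (SE 1.09), the striatum/thalamus of 1.11 (SE 1.26), and the cortex of 0.16 (SE 0.820), with edgeR adjusted p = 0.698, 0.977, and 0.988. The largest fold that the interval in the striatum/thalamus allowed was 14.7. Without HIBI pup 5 the cerebellum value was -0.18, and without HIBI pup 7 the value of the striatum/thalamus was 0.23 (0.74 to 1.75 without any other pup).

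Adding up the reads of a group showed how little there was to compare. The cerebellum had 55 reads of miR-210-3p in sham and 57 in HIBI, the striatum/thalamus 13 and 27, and the cortex 63 and 37. Over the summed counts of a group, the level in the striatum/thalamus was 1.61 CPM in sham (exact Poisson interval 0.855 to 2.75) and 3.67 CPM in HIBI (2.42 to 5.34). These 2 intervals overlapped, as did those of the other regions. Overlap of intervals is not a test of the difference, and the summed reads were not tested against each other. The intervals also hold no spread between pups.

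MiR-103-3p, with a median of 37810 reads per library, was measured far more precisely. In the cerebellum its level was 16103, 13236, 14890, and 17198 CPM in sham pups 2, 3, 6, and 8, and 11128, 16984, 17201, and 17457 CPM in HIBI pups 1, 4, 5, and 7. HIBI pup 1 was the lowest of the 8, HIBI pup 4 lay within the sham range, and HIBI pups 5 and 7 lay just above it. The means were 15357 ± 1699 CPM in sham (SD, n = 4) and 15692 ± 3049 CPM in HIBI.

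In the striatum/thalamus, the sham pups had 12906, 17447, 14518, and 13938 CPM of miR-103-3p and the HIBI pups 13427, 12554, 18089, and 12149 CPM. Both groups held 3 lower libraries and 1 higher one, sham pup 3 and HIBI pup 5. In the cortex, the sham pups had 21242, 17522, 17913, and 20754 CPM and the HIBI pups 15533, 19089, 16321, and 17153 CPM. Of the HIBI cortex libraries, 3 lay below all sham libraries and pup 4 lay among them.

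The log2 fold change of miR-103-3p was 0.03 in the cerebellum (SE 0.203; edgeR, adjusted p = 0.964), -0.07 in the striatum/thalamus (SE 0.185; edgeR, adjusted p = 0.980), and -0.19 in the cortex (SE 0.133; edgeR, adjusted p = 0.932). The 95% confidence intervals ran from 0.752 to 1.39, from 0.721 to 1.27, and from 0.719 to 1.08 in folds. They held no fold change of 1.5 in either direction. By exact permutation test, p was 0.943, 0.571, and 0.114. Without HIBI pup 1, the cerebellum value was 0.16, and its direction also turned with the scaling of the libraries, so none is given.

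MiR-107-3p in the cerebellum had 569, 564, 532, and 545 CPM in the sham pups and 701, 560, 614, and 633 CPM in the HIBI pups. The sham libraries were close together, and 3 of the 4 HIBI libraries lay above all of them. HIBI pup 4 lay among them. The means were 553 ± 17.1 CPM in sham (SD, n = 4) and 627 ± 58.1 CPM in HIBI, a log2 fold change of 0.18 (95% confidence interval -0.21 to 0.57; edgeR, adjusted p = 0.589). The exact permutation test gave p = 0.0857, the smallest of the 12 tests of a member in a region. Without HIBI pup 1, the highest of the 8, the log2 fold change was 0.12 (edgeR, adjusted p = 0.721), and it was also 0.12 without sham pup 6 or 8.

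In the striatum/thalamus, miR-107-3p had 661, 963, 766, and 741 CPM in the sham pups and 691, 518, 787, and 612 CPM in the HIBI pups. The lowest 2 libraries were HIBI pups 4 and 7 and the highest was sham pup 3. The means were 783 ± 128.2 CPM in sham (SD, n = 4) and 652 ± 114 CPM in HIBI, with a log2 fold change of -0.26 (95% confidence interval -0.71 to 0.18; edgeR, adjusted p = 0.977). This interval reached a fold of 0.611, beyond a decrease of 1.5-fold.

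In the cortex, the sham pups had 729, 740, 699, and 824 CPM of miR-107-3p and the HIBI pups 589, 825, 679, and 883 CPM. HIBI spanned the sham range on both sides. The group means were 748 ± 53.6 and 744 ± 134 CPM (SD, n = 4 each), and the log2 fold change was -0.01 (95% confidence interval -0.34 to 0.32; edgeR, adjusted p = 0.990). Exact permutation p was 0.886 for the cortex and 0.200 for the striatum/thalamus.

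**Figure D2:**
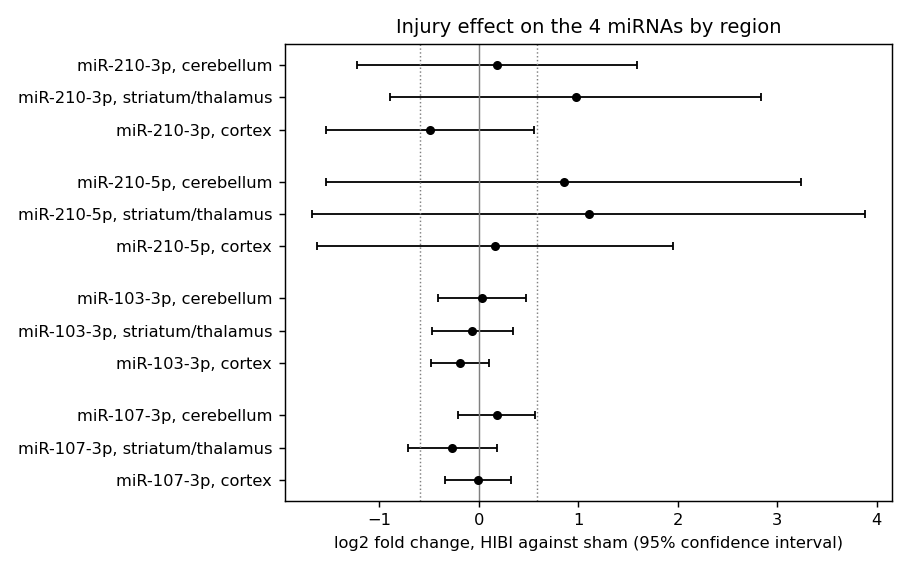
Log2 fold change of HIBI against sham for the 4 miRNAs in each region (x axis), with points for the edgeR estimate, bars for the 95% confidence interval, a solid line at no change, and dotted lines at a 1.5-fold change either way. Every interval crosses 0. Those of miR-210 extend up to 3.88, while all 3 of miR-103-3p stay between the dotted lines.

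The erythrocyte markers miR-451a, miR-144-3p, and miR-486a-5p summed to 731 to 1324 CPM in the sham cerebellum and to 579 to 787 CPM in the HIBI cerebellum, ranges that overlap in part. All 3 were detected in both groups. The 5 markers of choroid plexus and ciliated epithelium summed to 2545 to 10181 CPM in the sham cerebellum and 2765 to 4055 CPM in the HIBI cerebellum. The part of blood or choroid plexus RNA in the levels of the 4 members was not tested.

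The study contrasts the cerebellum with the forebrain regions, and the injury effect was compared between them as an interaction in 1 edgeR model of the 24 libraries. The mean forebrain effect minus the cerebellar effect was 0.14 on the log2 scale for miR-210-3p (SE 0.743; edgeR, adjusted p = 0.946). It was -0.13 for miR-210-5p (SE 1.35), -0.09 for miR-103-3p (SE 0.214), and -0.24 for miR-107-3p (SE 0.191), with edgeR adjusted p = 0.979, 0.859, and 0.543. None of the 4 passed, and neither did any of the 437 miRNAs fitted (0.00%). Before adjustment, 71 of the 437 had an edgeR p-value under 0.05, and the DESeq2 Wald test called 6. The interval for miR-107-3p ran from -0.64 to 0.15.

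MiR-107-3p and miR-103-3p can also be set against each other within a library, which removes the scaling. This share, like the ratio of 23.7 above, depends on how reads that end before base 22, and so match both, were assigned, which the sources used here do not give. The share of miR-107-3p in the reads of both was 3.41%, 4.09%, 3.45%, and 3.07% in the cerebellum of sham pups 2, 3, 6, and 8, and 5.92%, 3.19%, 3.45%, and 3.50% in that of HIBI pups 1, 4, 5, and 7. HIBI pup 1 stood alone (95% Wilson interval 5.58 to 6.29, 1009 of 17037 reads), and the other 7 libraries were between 3.07% and 4.09%. The means were 3.51 ± 0.424% and 4.01 ± 1.28% (SD, n = 4; exact permutation p = 0.600). Without pup 1, the difference of HIBI from sham turned from 0.508 to -0.128 percentage points.

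In the striatum/thalamus, the share was 4.87%, 5.23%, 5.01%, and 5.05% in the sham pups and 4.89%, 3.97%, 4.17%, and 4.80% in the HIBI pups. Only HIBI pup 1 fell inside the sham range. The means were 5.04 ± 0.147% in sham and 4.46 ± 0.459% in HIBI (SD, n = 4), a difference of -0.584 percentage points (exact permutation p = 0.0571, adjusted over the 3 regions p = 0.171). The cortex had 3.32%, 4.05%, 3.75%, and 3.82% in sham and 3.66%, 4.14%, 4.00%, and 4.90% in HIBI, with overlapping groups and a difference of 0.437 percentage points (exact permutation p = 0.257). That difference was 0.195 without HIBI pup 7 and 0.297 without sham pup 2.

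**Figure D3:**
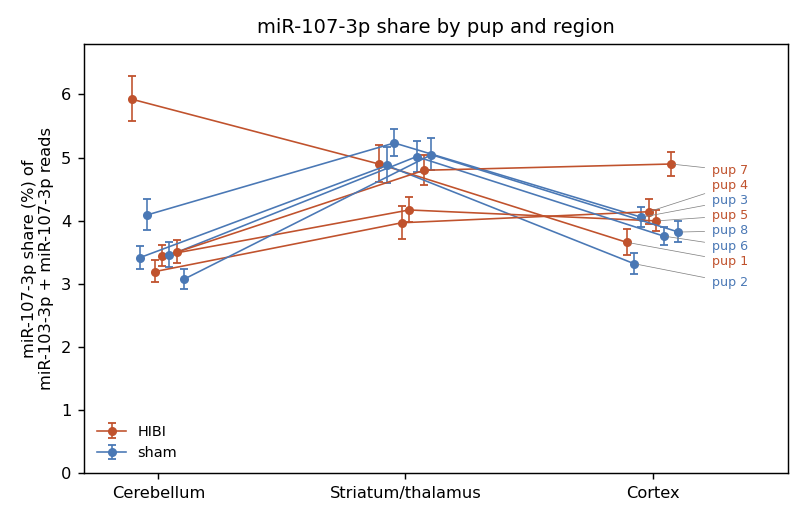
Share of miR-107-3p in the reads of miR-103-3p plus miR-107-3p (y axis, percent), with the 3 regions of each pup joined by a line, HIBI in red and sham in blue, pup numbers at the right, and bars for the 95% Wilson interval of each library. In 7 of the 8 pups the share is higher in the striatum/thalamus than in the cerebellum, and the exception is HIBI pup 1, whose cerebellum is at 5.92%.

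Over the 8 pups the share of miR-107-3p was highest at 4.75 ± 0.444% in the striatum/thalamus, then 3.95 ± 0.461% in cortex and 3.76 ± 0.923% in cerebellum (SD, n = 8). The striatum/thalamus was above the cerebellum of the same pup by 0.988 percentage points (higher in 7 of 8 pups; two-sided exact sign-flip permutation test, p = 0.0313, adjusted over the 3 pairs of regions p = 0.0703). It was above the cortex in 6 of 8 pups, with the cortex lower by 0.795 percentage points (exact sign-flip p = 0.0469, adjusted p = 0.0703). Both differences missed the threshold after adjustment. Without pup 1, the only pup in which the cerebellum was the higher, the first was 1.28 percentage points. Leaving out the only pup of the opposite sign fixes the exact sign-flip p at its floor (0.0156, not adjusted), so this p adds no support. The cerebellum and cortex could not be ordered (0.193 percentage points; exact sign-flip p = 0.672).

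Levels between regions were compared over all 24 libraries, averaged over HIBI and sham. A fold change above 1.5 with an edgeR adjusted p-value under 0.05 was met by 62.5% of the 437 miRNAs fitted for the striatum/thalamus against the cerebellum, by 55.6% for the cortex against the cerebellum, and by 43.5% for the cortex against the striatum/thalamus. Among the members, only miR-210-3p met it, and only in the first pair. Differences between regions were thus common among all miRNAs, and 1 of the 12 regional differences of the members was among them.

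MiR-210-3p was highest in the cerebellum, at 6.47 ± 3.82 CPM, then in the cortex at 4.70 ± 2.59 CPM, and lowest in the striatum/thalamus at 2.45 ± 2.05 CPM (SD, n = 8). In reads, the 8 libraries had a median of 12.5 in the cerebellum, 10.5 in the cortex, and 3 in the striatum/thalamus. The striatum/thalamus was below the cerebellum by a log2 difference of -1.43 (SE 0.483; edgeR, adjusted p = 0.0112), a fold of 0.371 (95% confidence interval 0.186 to 0.740), and lower in 7 of 8 pups. The exact sign-flip test of the paired differences gave p = 0.0547. Without pup 6, whose cerebellum had 30 reads, the difference was -0.97 (edgeR, adjusted p = 0.0894). The cortex did not differ from the cerebellum beyond its spread (-0.46; edgeR, adjusted p = 0.355) or from the striatum/thalamus (0.97; edgeR, adjusted p = 0.0988; exact sign-flip p = 0.0469). It was below the cerebellum in 7 of 8 pups, all but pup 3 (exact sign-flip p = 0.625). With each pup left out, that difference ran from -0.92 to -0.01. In none of 13 alternatives was its edgeR or DESeq2 adjusted p under 0.05 (lowest 0.0643).

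MiR-210-5p had no order beyond its spread. Its level was 1.40 ± 1.48 CPM in the cerebellum, 1.67 ± 1.90 CPM in the striatum/thalamus, and 1.46 ± 1.06 CPM in the cortex (SD, n = 8), and none of the 3 pairs passed the test (edgeR, adjusted p of 0.861 to 0.939).

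MiR-103-3p was highest in the cortex, at 18525 ± 1633 CPM, against 15390 ± 2820 CPM in the cerebellum and 14280 ± 2048 CPM in the striatum/thalamus (SD, n = 8). The cortex was above the striatum/thalamus by a log2 difference of 0.37 (SE 0.124; edgeR, adjusted p = 0.0146) and in 7 of 8 pups (exact sign-flip p = 0.0156). Leaving out pup 2, 7, or 8 raised the edgeR adjusted p to 0.0595, 0.0587, and 0.0509. The cortex was above the cerebellum in 8 of 8 pups (log2 difference 0.26; exact sign-flip p = 0.00781, the smallest that 8 pups can give), while edgeR gave an adjusted p of 0.0640. With upper quartile scaling (edgeR, adjusted p = 0.0351) and with DESeq2 (adjusted p = 0.0252) it passed, and it did not under the other 11 alternatives. The cerebellum and striatum/thalamus were not separated (-0.11; edgeR, adjusted p = 0.438).

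MiR-107-3p had another order, with 761 ± 91.8 CPM in the cortex, 711 ± 112 CPM in the striatum/thalamus, and 581 ± 45.9 CPM in the cerebellum (SD, n = 8). The cortex was above the cerebellum by a log2 difference of 0.39 (SE 0.110; edgeR, adjusted p = 0.00373), in 7 of 8 pups (exact sign-flip p = 0.0156). The striatum/thalamus was also above the cerebellum, by 0.29 (SE 0.110; edgeR, adjusted p = 0.0221), in 7 of 8 pups (exact sign-flip p = 0.0234). That call was lost without pup 3, 5, or 6, with edgeR adjusted p = 0.0614, 0.0897, and 0.0600, with upper quartile scaling (adjusted p = 0.102), and with no CPM minimum (log2 difference 0.20, adjusted p = 0.545). The cortex and striatum/thalamus were not separated (0.10; edgeR, adjusted p = 0.455).

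Between cerebellum and striatum/thalamus the mean of miR-103-3p was the higher in the former and that of miR-107-3p in the latter, and only the second difference passed the test. No fold change of these 2 miRNAs between regions was above 1.5. An adjusted p-value under 0.05 without the fold criterion was met by 69.8%, 64.5%, and 53.5% of all miRNAs fitted in the 3 pairs, in the order given above.

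**Figure D4:**
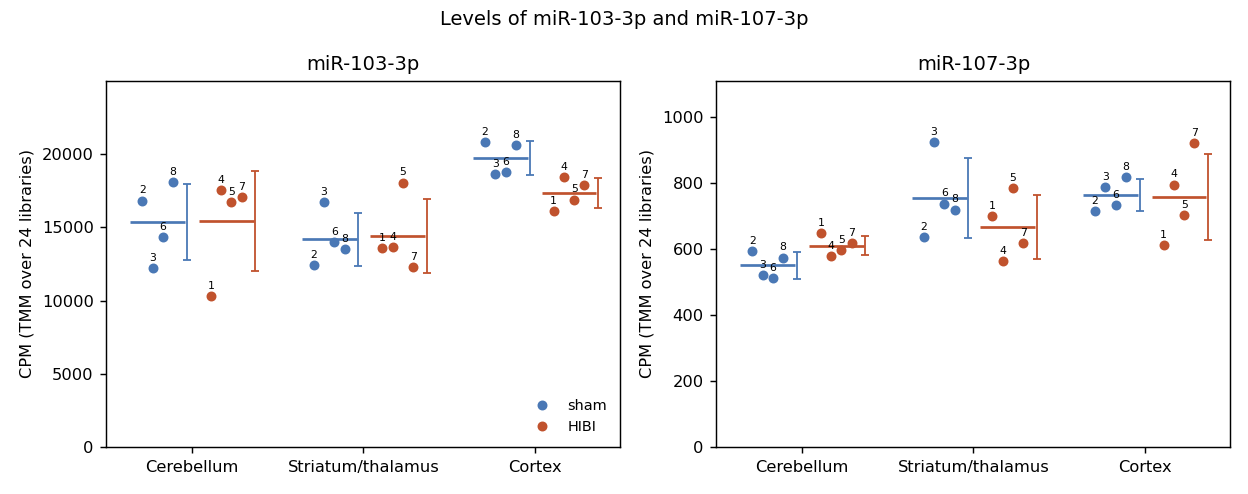
Level of miR-103-3p (left) and miR-107-3p (right) in CPM after TMM scaling over the 24 libraries (y axis), by region, with a point for each sham pup (blue) and HIBI pup (red) labelled by number, a line at the group mean, and a bar for the SD (n = 4). MiR-103-3p is highest in the cortex, and miR-107-3p is lowest in the cerebellum, where HIBI pup 1 has the least miR-103-3p.

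Other miRNAs described as responding to hypoxia also had no call. Of a list of 17, all passed 10 CPM in the cerebellum and 16 in each of the other regions, and none met the criteria. Of all miRNAs fitted, 8.03% met them in the cerebellum, 2.74% in striatum/thalamus, and 3.64% in cortex. Counts of 0 in a list of this size lie near that background. The median log2 fold change of the list was 0.06 in the cerebellum (0.12 over all miRNAs fitted), -0.17 in striatum/thalamus (-0.03), and 0.00 in cortex (-0.02). In the striatum/thalamus, 13 of the 16 had a log2 fold change below 0, with a range of -0.46 to 0.08. The share of all miRNAs below 0 was not counted, and their median there, -0.03, was also below 0.

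MiR-21a-5p, known for limiting cell death, was at 442 ± 102.6 CPM in the sham cerebellum and 642 ± 271 CPM in the HIBI cerebellum (SD, n = 4; log2 fold change 0.54, SE 0.315; edgeR, adjusted p = 0.441), and its fold change was 0.07 in the cortex and -0.18 in the striatum/thalamus on the log2 scale. MiR-181a-5p, which is abundant in brain, was at 55991 and 42974 CPM in the sham and HIBI cerebellum (log2 fold change -0.38; edgeR, adjusted p = 0.478). For miR-155-5p, a miRNA of inflammatory cells, the log2 fold change was -0.34 in cerebellum, -0.10 in striatum/thalamus, and -0.09 in cortex. None of these differences passed the test.

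Of 8 miRNAs described as acting on HIF or its regulators, 6 passed 10 CPM in the cerebellum, 5 in the cortex, and 4 in the striatum/thalamus, and none met the criteria. These counts of 0 also lie near the shares of all miRNAs fitted that met them (8.03%, 3.64%, and 2.74%, in the same order). All 6 had a log2 fold change above 0 in the cerebellum (0.02 to 0.71, median 0.39, where the median of all miRNAs fitted was 0.12), and upper quartile scaling, which moved that overall median by -0.13, would put the lowest of them below 0. The cortex had a median of -0.06 and the striatum/thalamus of -0.09. MiR-199a-5p, described as lowering HIF-1 alpha, was at 59.3 CPM in sham and 78.5 CPM in HIBI in the cerebellum (log2 fold change 0.41; edgeR, adjusted p = 0.478), at 13.5 and 22.6 CPM in the striatum/thalamus (0.76; edgeR, adjusted p = 0.977), and at 36.3 and 35.0 CPM in the cortex (-0.06; edgeR, adjusted p = 0.988).

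The miRNAs whose levels were most like those of miR-103-3p and miR-107-3p were found by Pearson correlation of log2(CPM + 1) over the 24 libraries among the 435 above 10 CPM, as a description. The libraries share regions and pups, so they are not independent points. For miR-103-3p these were miR-22-5p (r = 0.811), miR-128-3p (0.777), and miR-24-2-5p (0.703). For miR-107-3p they were miR-221-3p (0.777), miR-379-3p (0.760), and miR-221-5p (0.740). After the mean of each of the 6 groups was taken off, the likeness of miR-103-3p was with let-7i-5p (0.863), miR-26a-5p (0.833), and miR-7a-1-3p (0.796), and that of miR-107-3p was with miR-206-3p (0.679), miR-708-5p (0.639), and miR-130a-3p (0.621). The twin was not among the 3 nearest of either.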

How the data were processed

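Small RNA libraries were made with the NEXTFLEX kit from each region of each pup and sequenced on the Illumina NextSeq platform. With bowtie2, the authors mapped reads to the mature miRNAs of mouse in miRBase, and they deposited 1 table per region with the count of reads on each miRNA in each library, not normalized. The release and the handling of reads that match both miR-103-3p and miR-107-3p are not given in the sources used here. The tables also hold the authors' edgeR comparison (log2 fold change, log2 CPM, p-value, and false discovery rate), which was not used. The 20 castor bean entries of the 1551 (0.000156% of counts) were left out.

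The tests were run with edgeR 4.0.16 and limma 3.58.1 in R 4.3.3, and DESeq2 1.42.0 was an alternative. MiRNAs averaging above 10 CPM in a region plus the 4 members were fitted (cerebellum 436, striatum/thalamus 438, cortex 412) after TMM scaling, with Benjamini-Hochberg adjustment over all of them. Regions and the interaction were tested in 1 model of 6 groups over 24 libraries (437 fitted). Exact tests used log2(CPM + 1), two-sided, over 70 arrangements of pups or 256 sign flips. Alternatives were other scalings, no CPM minimum, DESeq2, edgeR's exact test, the sum of miR-103-3p and miR-107-3p, a pup block, and each pup left out. Replicates of every group differed by more than sampling noise (smallest chi-square per degree of freedom, 26.5). The code was tested on simulated data.

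The same animal gave the 3 regions, so libraries are paired by pup across regions. The deviations of same-numbered libraries from their group means correlated with a median r of 0.160 between striatum/thalamus and cerebellum. The median r was 0.270 between cortex and cerebellum and 0.190 between cortex and striatum/thalamus. The lowest pup was at -0.104, -0.0154, and -0.121, in the same order. Libraries of different pups were not correlated for comparison. HIBI and sham pups share no number. The miRNAs named were the 4 members, miRNAs with their seed, both fixed lists by count with 4 of their members, the other arms, and the 3 miRNAs most like miR-103-3p and miR-107-3p. The members and lists were chosen with earlier results of these data known. Sequences are from RefSeq, which held a mature sequence for 1291 of the 1531 mouse entries.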

Additional observations from a re-analysis of the deposited data

Results flagged for a closer look

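In 2 of the 30 groups of 4 libraries checked, one library lay far from the other 3, where chance gives about 1 in 20. Both were the HIBI cerebellum library of pup 1. MiR-103-3p was lowest there, at 11128 CPM against 16984 to 17457 CPM in the other HIBI pups, a gap of 0.925 of the group's range. The share of miR-107-3p in the reads of miR-103-3p plus miR-107-3p was highest there, at 5.92% against 3.19% to 3.50%, a gap of 0.887 of the range. These 2 values share the same reads of miR-103-3p. The library also had the fewest counts of the 24 and the most miRNAs detected in the cerebellum (912), and the part of this in either value was not tested.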

How the results depend on the processing

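No member met the criteria for HIBI against sham in any of 171 fits under other settings, and none had a p under 0.05. How much of the width of the miR-210 intervals came from low read numbers and how much from the spread between pups was not tested. The next counts pool HIBI against sham, regions, and the interaction, and with a pup left out also the share. Direction turned in 9 values under other settings, while 146 kept direction and call. With a pup left out, direction turned in 33, 227 kept both, and 12 kept the direction but no longer passed. Between regions, the adjusted p of miR-210-3p for the striatum/thalamus against the cerebellum was under 0.05 in 12 of 13 alternatives (lost without pup 6), that of miR-107-3p for the same pair in 8, and that of miR-107-3p for the cortex against the cerebellum in 13. For miR-103-3p it was under 0.05 in 10 of 13 for the cortex against the striatum/thalamus and in 2 of 13 for the cortex against the cerebellum.

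With no CPM minimum, 106, 54, and 86 miRNAs were counted in the cerebellum, striatum/thalamus, and cortex against 35, 12, and 15. For the interaction, 10 passed. More miRNAs were fitted there, and the part of this in the higher counts was not tested. DESeq2 counted 19 in the striatum/thalamus and 6 for the interaction, and the cause was not tested. MiR-103-3p turned to -0.10 with upper quartile scaling and -0.0131 with no CPM minimum in the cerebellum, and to 0.00290 by library size in the striatum/thalamus. MiR-107-3p in the cortex turned to 0.00646 by library size, 0.00169 with DESeq2's size factors, 0.0329 with no CPM minimum, and 0.00181 with DESeq2. MiR-210-5p turned to 0.0636 with no CPM minimum for the cortex against the striatum/thalamus, and the interaction of miR-210-3p turned to -0.0346 by library size. Scaling by library size moved the median log2 fold change of all miRNAs in the cerebellum by 0.15, and upper quartile scaling by -0.13.

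With each pup left out in turn, 18 to 79 miRNAs were counted in the cerebellum, with 18 without sham pup 2, 20 without sham pup 3, 63 without HIBI pup 1, and 79 without sham pup 6, and 7 to 38 in the striatum/thalamus, with 7 without sham pup 3, 19 without sham pup 8, and 38 without HIBI pup 5. MiR-210-3p ranged from -0.20 to 0.94 in the cerebellum, from 0.32 to 1.55 in the striatum/thalamus, from -0.70 to 0.0727 in the cortex, from -1.76 to -0.97 for the striatum/thalamus against the cerebellum, and from -0.80 to 0.83 for the interaction. MiR-210-5p ranged from -0.18 to 1.84 in the cerebellum, from 0.23 to 1.75 in the striatum/thalamus, from -0.36 to 0.53 in the cortex, from -0.38 to 0.86, -0.23 to 0.55, and -0.35 to 0.51 for the striatum/thalamus against the cerebellum, the cortex against the cerebellum, and the cortex against the striatum/thalamus, and from -0.70 to 1.07 for the interaction. MiR-103-3p ranged from -0.0821 to 0.16 in the cerebellum, from -0.21 to 0.11 in the striatum/thalamus, and from -0.29 to 0.0208 for the interaction. MiR-107-3p ranged from -0.0949 to 0.0844 in the cortex. Its share differed by -0.128 to 0.782 percentage points between HIBI and sham in the cerebellum and by 0.195 to 0.609 in the cortex, by 0.848 to 1.28 between striatum/thalamus and cerebellum, and by -0.933 to -0.686 between cortex and striatum/thalamus.

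With the pup as a replicate block, the paired log2 difference of miR-210-3p between striatum/thalamus and cerebellum was -1.48 (edgeR, adjusted p = 0.0152), and the block changed no call of a member. No paired analysis was possible for HIBI against sham because the groups share no pup.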

Other observations

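The other arms of the hairpins of miR-103 were almost absent beside the 3p arm. MiR-103-1-5p had 8 reads over the 24 libraries and was at 0 in 20 of them, and miR-103-2-5p had 44 reads and was at 0 in 10. There were 16891 reads of miR-103-3p for each read of both 5p arms together, while for miR-210 the 3p arm had 252 reads against 80. The sequences of both arms differ by G1A, counted from the 5′ end with the base of miR-103-1-5p first, which is the only position that separates a read of Mir103-1 from a read of Mir103-2. Of the 44 reads of miR-103-2-5p, 25 were in the cortex, where all 8 libraries had at least 1, against 8 in the cerebellum and 11 in the striatum/thalamus. HIBI pup 5 alone held 9 of those 11. Over the summed counts of a region this was 1.19, 0.457, and 0.712 CPM, in the same order. The other arm of Mir107, miR-107-5p, differs from miR-103-2-5p by C16U and had no entry in the counts. Where its reads were counted is not known. All 8 reads of miR-103-1-5p were in the striatum/thalamus (3) and cortex (5).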
